A study of Mus musculus with 2 samples.

Results

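The genes described here are the ligands and receptors of the TGF-beta pathway that the study's libraries were searched for by symbol: Tgfb1, Tgfb2 and Tgfb3, which encode the TGF-beta ligands, Inhba, which encodes a subunit of activin, and Tgfbr1, Tgfbr2 and Tgfbr3, which encode receptors. All 7 were found in both gene lists, among 27514 genes that the lists share. Cells were grouped by other genes.

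A TGF-beta ligand is secreted in a latent complex and, once freed, binds a type II receptor kinase (Tgfbr2), which activates a type I receptor kinase (Tgfbr1), which in turn phosphorylates SMAD2 and SMAD3. Betaglycan, the product of Tgfbr3, has no kinase domain and presents ligand to the other receptors, and activin signals through type I and type II receptors of its own. In the embryonic jaw these ligands are known as signals that pass between epithelium and neural crest-derived mesenchyme, and in vessels the pathway is known for its part in the maturation of the endothelium.

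The study made 2 single-cell libraries from mice carrying K14Cre;R26mT/mG, in which a keratin 14 promoter drives Cre and recombined cells switch to GFP. At E12.0, mandibular epithelium of 6 littermate embryos was peeled from the mesenchyme, pooled and sorted for GFP+ cells, so mesenchyme and vessels are absent by design. At E9.5, whole mandibular arches of 8 littermate embryos were pooled without a sort, so this library holds epithelium, mesenchyme and endothelium. No treatment was given at either stage. Because each stage is a single pooled library, there is no replicate: intervals cover counting error only, and no p-value can be given.

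UMIs (unique molecular identifiers, each marking a captured transcript) were summed over the cells of a group and given as CPM, the UMIs of a gene per 1000000 UMIs of the group, with exact 95% Poisson intervals. After the study's cell filter, 11355 cells with 77936364 UMIs remained at E12.0 and 12744 cells with 166191431 UMIs at E9.5, with medians of 6349 and 13460.5 UMIs per cell. The share of cells with a UMI depends on that depth and is therefore also given after each cell was thinned to 4000 UMIs. The 63 E9.5 erythroid cells, which should lack most of these transcripts, were read for carry-over of free RNA. They had 1.04 CPM of Tgfb2 (0.0265 to 5.82) and 4.18 CPM of Tgfbr1 (1.14 to 10.7), against 27.3 and 51.2 CPM in the whole library. Their Tgfb1, 8.36 CPM (3.61 to 16.5) from 8 UMIs, and Tgfbr3, 7.31 CPM (2.94 to 15.1) from 7 UMIs, were instead no lower than the library's 6.32 and 4.94 CPM, so these cells gave no measure of free RNA for either gene. After thinning, 1 of 52 erythroid cells (1.92%, exact interval 0.0487 to 10.3) held a Tgfb1 UMI, 3 of 52 (5.77%, 1.21 to 15.9) a Tgfbr3 UMI and 0 of 52 a UMI of any other member, which allows a share of up to 6.85% (exact binomial bound). The libraries shared 44 cell barcodes among the kept cells.

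At E12.0, cells were placed in 6 zones by UMIs of genes that mark known parts of the mandibular epithelium. These were the Shh zone of 212 cells (initiation knots of the teeth), the Irx1 zone of 454 (dental epithelium), the Timp3 zone of 654 (diastema, between incisor and molar), the Cxcl14 zone of 4214 (anterior, aboral side), the Dmrt2 zone of 181 (posterior) and the Ppl+Pkp1 zone of 348 (periderm and suprabasal cells). Markers other than the gate genes were compared between each zone and all other cells. Several of them were named by the study from this same library, so they are no independent check. They were at least 1.5-fold higher for 5 of 5 genes in the Shh zone, 6 of 6 in the Irx1 zone, 4 of 4 in the Dmrt2 zone and 5 of 5 in the Ppl+Pkp1 zone. In the Timp3 zone 2 of 3 passed (Prss23 reached a ratio of 1.44) and in the Cxcl14 zone 4 of 5 (Slc4a4 reached 1.06). The diastema list summed to 263 CPM in the Timp3 zone but to 327 CPM in the Shh zone, so the name diastema is tentative. A further 1270 cells carried several zone genes and 4022 carried none at that level, and these were in no zone. Each zone was compared with all other kept E12.0 cells, and a gene was counted where at least 20 UMIs would be expected in the smaller group at equal CPM.

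Tgfb2, on chromosome 1 (GRCm38, 186622792 to 186705989, minus strand), differed most between the E12.0 zones among the members detected in all 6. It reached 745 CPM (705 to 788) in the Shh zone, against 31.0 CPM in all other cells, a ratio of 24.0 (22.4 to 25.8). The level was 108 CPM (97.6 to 119) in the Irx1 zone and 99.8 CPM (88.1 to 113) in the Ppl+Pkp1 zone, 2.49 and 2.24 times the other cells. Neighbouring levels in this order were apart by more than counting error except for the Irx1 and Ppl+Pkp1 zones, whose ratio had an interval from 0.923 to 1.27. Below them came the Timp3 zone at 21.7 CPM (17.6 to 26.4), the Cxcl14 zone at 11.2 (9.95 to 12.5) and the Dmrt2 zone at 5.14 (2.07 to 10.6), which rests on 7 UMIs. These zones were 2.22, 5.97 and 9.18 times lower than the other cells, and the levels spanned 145-fold from the Shh zone to the Dmrt2 zone. The other cells in these ratios included the Shh zone, which raised their level, and ratios without it were not computed. The Timp3 zone level did not differ beyond its interval from the 24.9 CPM (23.8 to 26.1) of all kept E12.0 cells with no Shh UMI.

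The share of cells with a Tgfb2 UMI followed the same order after thinning, but without thinning it was 3.87% in the Dmrt2 zone and 3.73% in the Cxcl14 zone. In the Shh zone 80.7% of cells held at least 1 Tgfb2 UMI, and 75.2% did after thinning. The thinned share was 24.4% in the Irx1 zone, 17.4% in the Ppl+Pkp1 zone, 5.72% in the Timp3 zone, 2.64% in the Cxcl14 zone and 2.26% in the Dmrt2 zone. The 212 cells of the Shh zone, 1.87% of the kept cells, held 34.7% of all Tgfb2 UMIs of the library. In that zone 114 cells (53.8%) carried 5 or more Tgfb2 UMIs, against 17 cells (0.403%) of the Cxcl14 zone. The zones did not hold all of the Tgfb2. The 4022 cells with no zone gene at the gate level held 30.7% of its UMIs, at 44.9 CPM (42.3 to 47.6). Of these cells, 51 (1.27%) carried 5 or more.

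**Figure D1:**
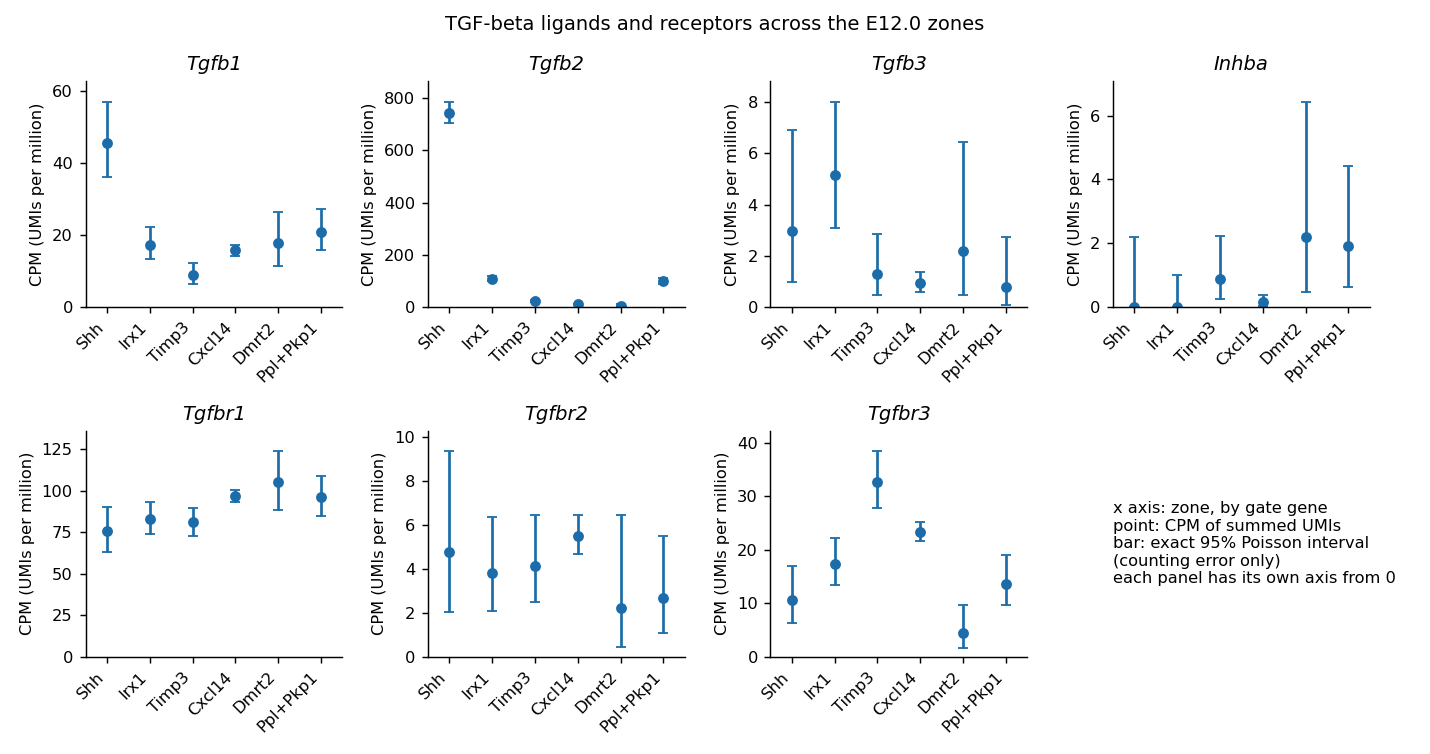
CPM of each of the 7 members in the 6 E12.0 zones, which are named by their gate gene; points are summed UMIs as CPM, bars are exact 95% Poisson intervals for counting error, and each panel has its own axis from 0. Tgfb2 stands at 745 CPM in the Shh zone and at 108 or less in the other zones, Tgfbr1 lies between 75.8 and 105 in all 6, and Tgfbr3 is highest in the Timp3 zone at 32.7.

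Tgfb2 increased with the number of Shh UMIs in a cell, also below the limit that defined the zone. Over all kept E12.0 cells it was 24.9 CPM (23.8 to 26.1) in the 10888 cells with no Shh UMI and 229 CPM (206 to 254) in the 209 cells with exactly 1. It was 487 CPM (449 to 528) in the 152 cells with 2 to 4, and 955 CPM (891 to 1022) in the 106 cells with 5 or more. The intervals of these 4 groups do not overlap, and 90.5% of thinned cells in the last group held a Tgfb2 UMI. These groups of cells were chosen after the zone values were seen.

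**Figure D2:**
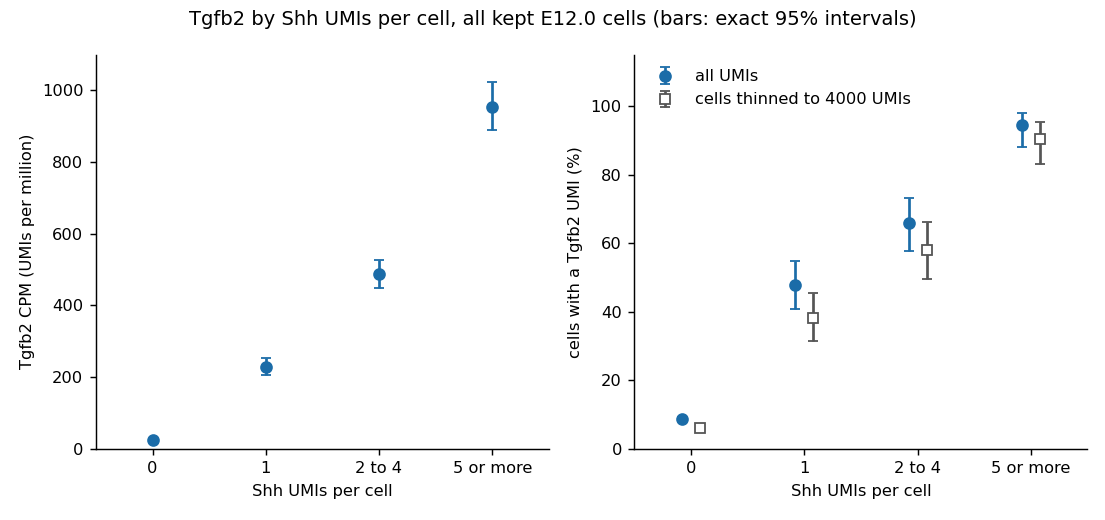
Tgfb2 in all kept E12.0 cells grouped by their number of Shh UMIs, as CPM on the left and as the percentage of cells with a Tgfb2 UMI on the right, with all UMIs (filled) and after thinning to 4000 UMIs (open); bars are exact 95% intervals. CPM goes from 24.9 with no Shh UMI to 955 with 5 or more, and the thinned share from 6.004% to 90.5%.

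Shh is also transcribed outside the teeth, so the zone was divided by Foxa1 and Foxa2, transcription factor genes that mark tongue and taste epithelium. In 191 Shh zone cells with no UMI of either, Tgfb2 was 812 CPM (767 to 859), and in the 21 with at least 1 it was 204 CPM (145 to 280), a ratio of 3.98 (2.88 to 5.65). This division, too, was chosen after the zone values were seen, as were those by Shh in the next paragraph. Among all E12.0 cells with 2 or more Foxa1 or Foxa2 UMIs, Tgfb2 was 49.96 CPM (37.3 to 65.5).

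The Ppl+Pkp1 zone had 263 Tgfb2 UMIs, of which 168 lay in cells that also carried Shh. Of its 348 cells, 59 held a Shh UMI, and Tgfb2 was 345 CPM (295 to 401) in them and 44.2 CPM (35.8 to 54.0) in the 289 with none, a ratio of 7.80 (6.03 to 10.1). Without cells holding a Shh UMI outside the Shh zone, the log2 ratio of this zone to the other cells was 0.12 in place of 1.16. Tgfb2 no longer passed 1.5-fold there, but the other cells still held the whole Shh zone, so this drop is in part built in. The 44.2 CPM of the Ppl+Pkp1 cells with no Shh UMI was above the 24.9 CPM (23.8 to 26.1) of all kept E12.0 cells with none. Called doublets made up 14.4% of the Ppl+Pkp1 zone and 12.3% of the Shh zone, against 5.82% of the library, and without them the log2 ratio of Tgfb2 in the Shh zone was 4.70 in place of 4.59. Within the Ppl+Pkp1 zone, cells with 2 or more UMIs of Tagln or Acta2, genes of contractile proteins, had 75.6 CPM of Tgfb2 (55.3 to 100.8), against 120 CPM (104 to 138) in cells with none. The share of cells with a Tgfb2 UMI was in the other order, 31.9% against 26.3% (20.3% against 18.0% after thinning), with overlapping intervals. The initiation knot markers summed to 8.22 against 40.0 CPM in these sets, and the part of cells with Shh in the CPM difference was not tested. In the Irx1 zone, which by its definition holds no cell with 2 Shh UMIs, the 26 cells with 1 Shh UMI had 281 CPM (216 to 359), 2.90 times the 96.8 CPM (86.7 to 108) of the 428 cells with none (2.18 to 3.81). Cells of the Irx1 zone with a UMI of the incisor genes Isl1 or Tlx1 had 113 CPM and those without had 102 CPM, a ratio of 1.099 (0.898 to 1.35).

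Tgfb1, on chromosome 7 (25687002 to 25705077, plus strand), was also highest in the Shh zone. It was 45.6 CPM there (36.0 to 57.0), from 77 UMIs, against 16.6 CPM in all other cells, a ratio of 2.75 (2.15 to 3.46). It was 20.9 CPM (15.7 to 27.2) in the Ppl+Pkp1 zone, 17.6 (11.3 to 26.2) in the Dmrt2 zone, 17.3 (13.3 to 22.1) in the Irx1 zone and 15.7 (14.3 to 17.2) in the Cxcl14 zone, and neighbours among these 4 did not differ beyond counting error. The Timp3 zone was lowest at 8.89 CPM (6.38 to 12.1), 2.00 times lower than the other cells (1.46 to 2.80). The log2 ratio of the Timp3 zone, -0.9985, was -0.41 with a gate of 1 UMI and -0.34 with overlapping zones, where it no longer passed 1.5-fold. Within the Irx1 zone Tgfb1 was 23.7 CPM (17.4 to 31.6) in cells with Isl1 or Tlx1 and 9.90 CPM (5.77 to 15.9) in those without, a ratio of 2.40 (1.35 to 4.45). The Shh zone value depended on a technical limit: with at most 5% mitochondrial UMIs per cell, 59 cells of that zone remained and the ratio was 1.498, just under the 1.5-fold limit.

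Tgfb3 and Inhba were scarce in the E12.0 epithelium. Tgfb3 (chromosome 12, 86056745 to 86079041, minus strand) had 121 UMIs in the library, and its highest zone level was 5.14 CPM (3.09 to 8.03) in the Irx1 zone, from 19 UMIs. The Shh zone had 2.96 CPM, the Dmrt2 zone 2.20, the Timp3 zone 1.30, the Cxcl14 zone 0.920 and the Ppl+Pkp1 zone 0.759, and no neighbours in this order differed beyond counting error, although the Irx1 zone was 3.74 times above all other cells (2.16 to 6.14), from fewer UMIs than the minimum for a count. Only the Cxcl14 zone was large enough for Tgfb3 to be counted, and it was 2.08 times lower there than in the other cells (1.33 to 3.34).

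Inhba (chromosome 13, 16011851 to 16031621, plus strand) had 67 UMIs, of which 44 lay in cells that carried no zone gene at the gate level. No UMI was found in the Shh or the Irx1 zone, where 3 UMIs would have been 1.78 and 0.811 CPM. The Cxcl14 zone had 4 UMIs, or 0.142 CPM, which was 8.96 times lower than the other cells (3.33 to 33.9).

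Of the receptors, Tgfbr1 (chromosome 4, 47353222 to 47414931, plus strand) was the most even across the zones. It was 105 CPM (88.5 to 124) in the Dmrt2 zone, 96.6 (93.0 to 100.3) in the Cxcl14 zone, 96.4 (84.9 to 109) in the Ppl+Pkp1 zone, 83.0 (74.0 to 92.9) in the Irx1 zone, 80.9 (72.9 to 89.5) in the Timp3 zone and 75.8 (63.3 to 90.2) in the Shh zone. No zone was 1.5-fold from the other cells, and no neighbours in this order differed beyond counting error, although the ends of the range did, by 1.38 times. The thinned share of cells with a Tgfbr1 UMI was between 25.1% and 32.3% in every zone.

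Tgfbr2 (chromosome 9, 116084293 to 116175360, minus strand) was low in all zones, from 2.20 CPM (0.454 to 6.44) in the Dmrt2 zone to 5.49 CPM (4.66 to 6.42) in the Cxcl14 zone. Even these ends of its range did not differ beyond counting error. It could be counted only in the Timp3 and Cxcl14 zones, with ratios of 0.782 and 1.09 to the other cells, and the thinned share of cells with a UMI was 2.91% or less in every zone.

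Tgfbr3 (chromosome 5, 107106570 to 107289629, minus strand) had a pattern unlike that of Tgfb2. It was highest in the Timp3 zone at 32.7 CPM (27.7 to 38.4), followed by the Cxcl14 zone at 23.3 (21.5 to 25.1) and the Irx1 zone at 17.3 (13.3 to 22.1). It was lower than in the other cells in the Ppl+Pkp1 zone at 13.7 CPM (9.57 to 18.9), the Shh zone at 10.7 (6.32 to 16.9) and the Dmrt2 zone at 4.41 (1.62 to 9.59), by 1.73, 2.21 and 5.36 times. The log2 ratio of the Ppl+Pkp1 zone, -0.79, no longer passed 1.5-fold with gates of 1 UMI (-0.43) or 3 UMIs (-0.49), in thinned cells (-0.56) or with at most 5% mitochondrial UMIs (-0.25). From the Irx1 zone down, neighbours in this order did not differ beyond counting error. The Shh zone, with the most Tgfb2, was thus among the zones with the least Tgfbr3, and the Dmrt2 zone was low in both. Within the Irx1 zone Tgfbr3 was 9.60 CPM (5.78 to 15.0) in cells with Isl1 or Tlx1 and 26.2 CPM (19.1 to 35.1) in cells without, 2.73 times higher in the latter (1.57 to 4.94), the opposite direction to Tgfb1.

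Counted over the 42 pairs of a member and a zone, 28 had enough UMIs, and of these 4 were at least 1.5-fold higher, 9 lower and 15 within 1.5-fold. In the Shh zone 2 of the 4 counted members were higher (Tgfb1 and Tgfb2) and 1 lower (Tgfbr3), against 4.81% higher and 7.81% lower among all genes counted. In the Irx1 zone 1 of 4 was higher (Tgfb2) and 0 lower, with 3.26% and 8.05% of all genes. In the Timp3 zone 0 of 5 were higher and 2 lower (Tgfb1 and Tgfb2), with 0.964% and 3.63%. In the Cxcl14 zone 0 of 7 were higher and 3 lower (Tgfb2, Tgfb3 and Inhba), with 4.86% and 7.81%. In the Dmrt2 zone 0 of 4 were higher and 2 lower (Tgfb2 and Tgfbr3), with 3.77% and 5.54%. In the Ppl+Pkp1 zone 1 of 4 was higher (Tgfb2) and 1 lower (Tgfbr3), with 6.39% and 6.30%. Tgfb2 passed 1.5-fold in all 6 zones and Tgfbr1 in none. For Tgfb2 these calls are not separate results, since the reference of every other zone held the Shh zone with its high level. Cells with 2 or more UMIs of mesenchyme, endothelium, macrophage or erythroid markers made up 11.9% of the library, none had 10 or more, and the Tgfb2 log2 ratio of the Shh zone was 4.61 without them.

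At E9.5, cells were gated by UMIs of Epcam and Cdh1 (epithelium, 3051 cells), of Cdh5, Pecam1 and Kdr (endothelium, 369 cells) and of Prrx1 and Twist1 (mesenchyme, 6054 cells). A further 398 cells passed several gates, 45.5% of them called doublets, and 2872 passed none, so these were left out. Marker lists that the gates did not use followed the labels. The endothelium list of 6 genes summed to 1970 CPM in the endothelium gate and 44.6 or less in the other gates. Of 5 macrophage markers, 4 were at 0 in the endothelium gate and the other was at 1.84 CPM. The macrophage list summed to 0.271 CPM in the epithelium gate and 0.454 CPM in the mesenchyme gate, so it was highest in the endothelium gate.

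The endothelium gate had the highest levels of Tgfb1, Tgfbr2 and Tgfbr3. Tgfb1 was 109 CPM there (100.7 to 118), 2.24 (1.81 to 2.75) in the epithelium and 1.47 (1.23 to 1.73) in the mesenchyme, so the endothelium was 48.7 (39.0 to 61.4) and 74.5 (61.9 to 90.3) times higher. In all, 72.4% of endothelium cells held a Tgfb1 UMI, 36.0% after thinning, and these 369 cells, 2.90% of the library, held 56.4% of its Tgfb1 UMIs. The thinned shares were 0.730% in the epithelium and 0.906% in the mesenchyme, within the interval of the erythroid share. That interval (0.0487 to 10.3, from 52 cells) is too wide for a comparison of low shares. The part of free RNA in these low levels was not tested.

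Tgfbr2 was 47.6 CPM (41.9 to 53.7) in the endothelium, 4.10 (3.71 to 4.53) in the mesenchyme and 2.56 (2.10 to 3.11) in the epithelium. The endothelium was 11.6 times above the mesenchyme (9.86 to 13.6) and 18.5 times above the epithelium (14.7 to 23.5), and 17.9% of its thinned cells held a Tgfbr2 UMI. Tgfbr3 was 41.8 CPM (36.6 to 47.6) in the endothelium, 4.17 (3.56 to 4.84) in the epithelium and 2.11 (1.83 to 2.42) in the mesenchyme. For both receptors the endothelium was above the other gates by far more than counting error. The thinned Tgfbr3 shares were 2.09% in the epithelium and 0.854% in the mesenchyme, neither of them above the erythroid share. That share rests on 3 of 52 cells (1.21 to 15.9), too few for a comparison, and the part of free RNA was not tested for either receptor.

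**Figure D3:**
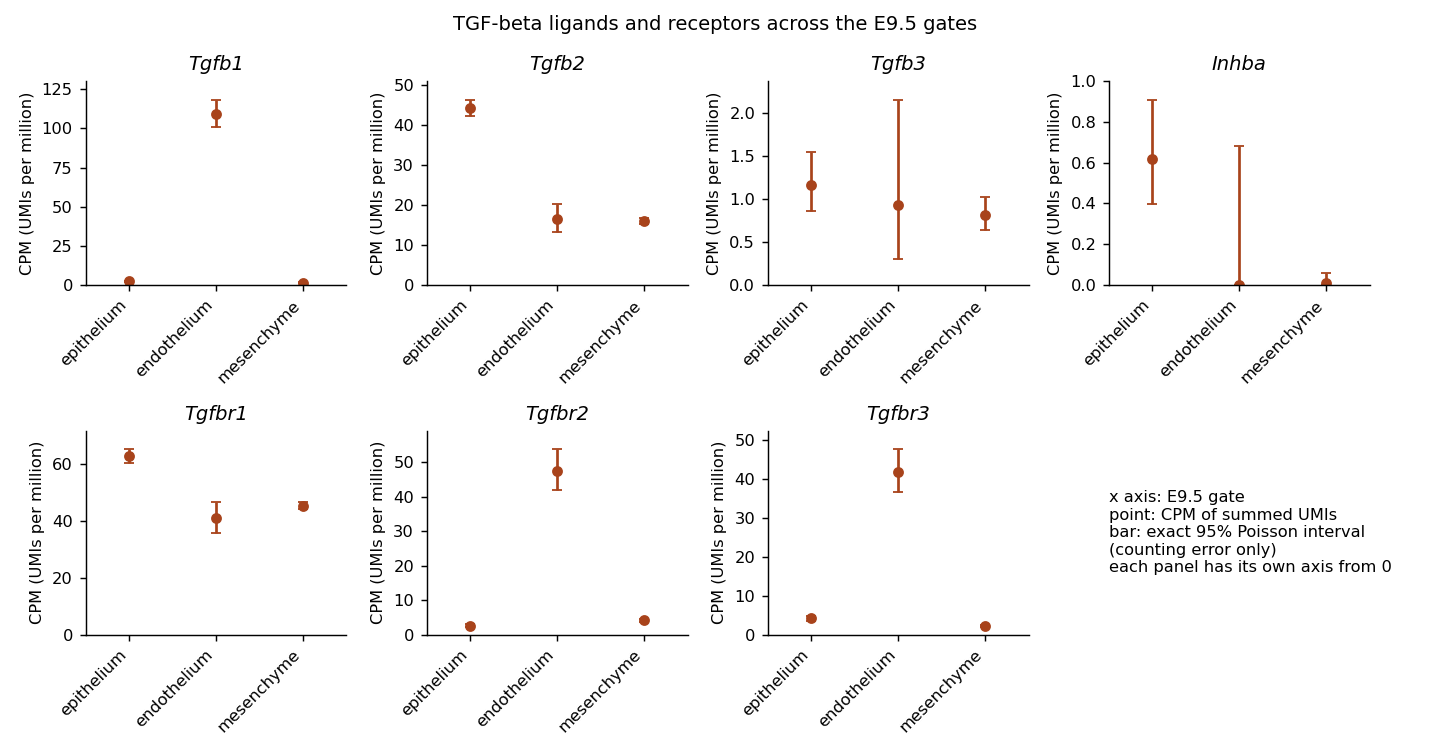
CPM of each of the 7 members in the E9.5 epithelium, endothelium and mesenchyme gates; points are summed UMIs as CPM, bars are exact 95% Poisson intervals for counting error, and each panel has its own axis from 0. Tgfb1, Tgfbr2 and Tgfbr3 are highest in the endothelium (109, 47.6 and 41.8 CPM), and Tgfb2 and Tgfbr1 in the epithelium (44.4 and 62.9 CPM).

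Among the 3 gates at E9.5, Tgfb2 and Tgfbr1 were highest in the epithelium. Tgfb2 was 44.4 CPM there (42.3 to 46.5), 16.4 (13.2 to 20.2) in the endothelium and 15.9 (15.1 to 16.8) in the mesenchyme. The epithelium was 2.78 times above the mesenchyme (2.60 to 2.98), and the endothelium and mesenchyme did not differ beyond counting error. The 2872 cells that passed no gate had 49.6 CPM of Tgfb2 (46.3 to 53.0). Tgfbr1 was 62.9 CPM (60.5 to 65.4) in the epithelium, 45.5 (44.2 to 46.9) in the mesenchyme and 41.1 (35.9 to 46.9) in the endothelium. Tgfb3 was between 0.812 and 1.16 CPM in the 3 gates, with no difference beyond counting error, and Inhba had 25 UMIs in the epithelium, 1 in the mesenchyme and 0 in the endothelium.

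Within the E9.5 epithelium, Tgfb2 differed between cells marked by regional genes. It was 98.7 CPM (80.9 to 119) in 70 cells with at least 2 UMIs of Foxa2, a gene of pharyngeal endoderm, and 58.7 CPM (50.3 to 68.1) in 203 cells with Pax1, a gene of the pharyngeal pouches. It was 20.3 CPM (18.4 to 22.4) in 1246 cells with Vgll2, 29.2 CPM (18.5 to 43.8) in 54 cells with Tfap2b and 44.0 CPM (37.9 to 50.8) in 289 cells with Sfn. Cells with Foxa2 were 4.85 times above cells with Vgll2 (3.88 to 6.01), a pair chosen after these levels were seen, while for Tgfbr1 the same ratio was 1.14 (0.877 to 1.45). A cell could be in several of these sets. Shared cells were not counted, and the intervals treat the sets as separate.

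The mesenchyme also held unequal Tgfb2. In 529 mesenchyme cells with at least 2 UMIs of Hand2, a transcription factor gene of the distal arch, Tgfb2 was 86.2 CPM (80.2 to 92.5), and in 5006 with none it was 7.59 CPM (6.99 to 8.23), a ratio of 11.4 (10.2 to 12.7). A Tgfb2 UMI was held by 34.2% of the cells with Hand2 and 8.45% of those with none (20.2% and 2.76% after thinning). Tgfb1, at 3.68 against 1.19 CPM, differed in the same direction by 3.09 times (2.01 to 4.64), from 33 UMIs in the cells with Hand2, and Tgfbr2 in the opposite one, 2.15 times higher without Hand2 (1.34 to 3.67), while the ratio of Tgfbr1 was 0.953 (0.856 to 1.06). The cells with Hand2 were also higher in both the mesenchyme marker list (732 against 469 CPM summed) and the epithelium list (281 against 55.0). In 607 cells of the library with at least 2 UMIs of Sox10, a gene of migratory neural crest and glia, Tgfb2 was 5.71 CPM (4.41 to 7.26).

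Cells outside the epithelium gate with 2 or more UMIs of Tcf21, Myf5 or Tbx1, genes of the arch mesoderm core, had 42.9 CPM of Tgfb2 (39.4 to 46.5). They had 73.4 CPM of Tgfbr1 (68.8 to 78.2), above the 62.9 CPM (60.5 to 65.4) of the epithelium gate. Their Tgfb1 of 12.6 CPM came largely from the 112 of these 935 cells that also passed the endothelium markers. It was 58.4 CPM (48.2 to 70.1) in those 112 and 4.63 CPM (3.46 to 6.07) in the other 823, while Tgfb2 was 41.2 and 43.2 CPM in the same sets. This division of the mesoderm cells was made after their values were seen.

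In the comparison of endothelium with mesenchyme, 3 of the 5 counted members were at least 1.5-fold higher (Tgfb1, Tgfbr2 and Tgfbr3) and 0 lower, against 15.8% higher and 14.6% lower among all genes counted. Between epithelium and mesenchyme, 3 of 6 were higher (Tgfb1, Tgfb2 and Tgfbr3) and 1 lower (Tgfbr2), against 25.4% and 10.2%, with a median log2 ratio over all genes of 0.15. These calls rest on low levels except for Tgfb2 (2.24 against 1.47 CPM for Tgfb1, 4.17 against 2.11 for Tgfbr3, 2.56 against 4.10 for Tgfbr2), and all but Tgfb2 were lost under an alternative. The log2 ratio of Tgfb1, 0.61, was 0.56 with gates of 2 UMIs, -0.05 with overlapping gates and -0.31 in thinned cells, that of Tgfbr3, 0.98, was 0.56 with overlapping gates, and that of Tgfbr2, -0.68, was -0.57 with cells weighted equally. Between endothelium and epithelium, 3 of 5 were higher (the same 3 as against mesenchyme) and 2 lower (Tgfb2 and Tgfbr1), against 13.6% and 25.6%, with a median over all genes of -0.17. The Tgfbr1 call, 1.53 times lower, was near the limit and did not hold with gates of 2 UMIs or overlapping gates. Over the 21 pairs of a member and a comparison, 16 were counted, 9 higher, 3 lower and 4 within 1.5-fold. These comparisons share gates, so they are not independent of each other.

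**Figure D4:**
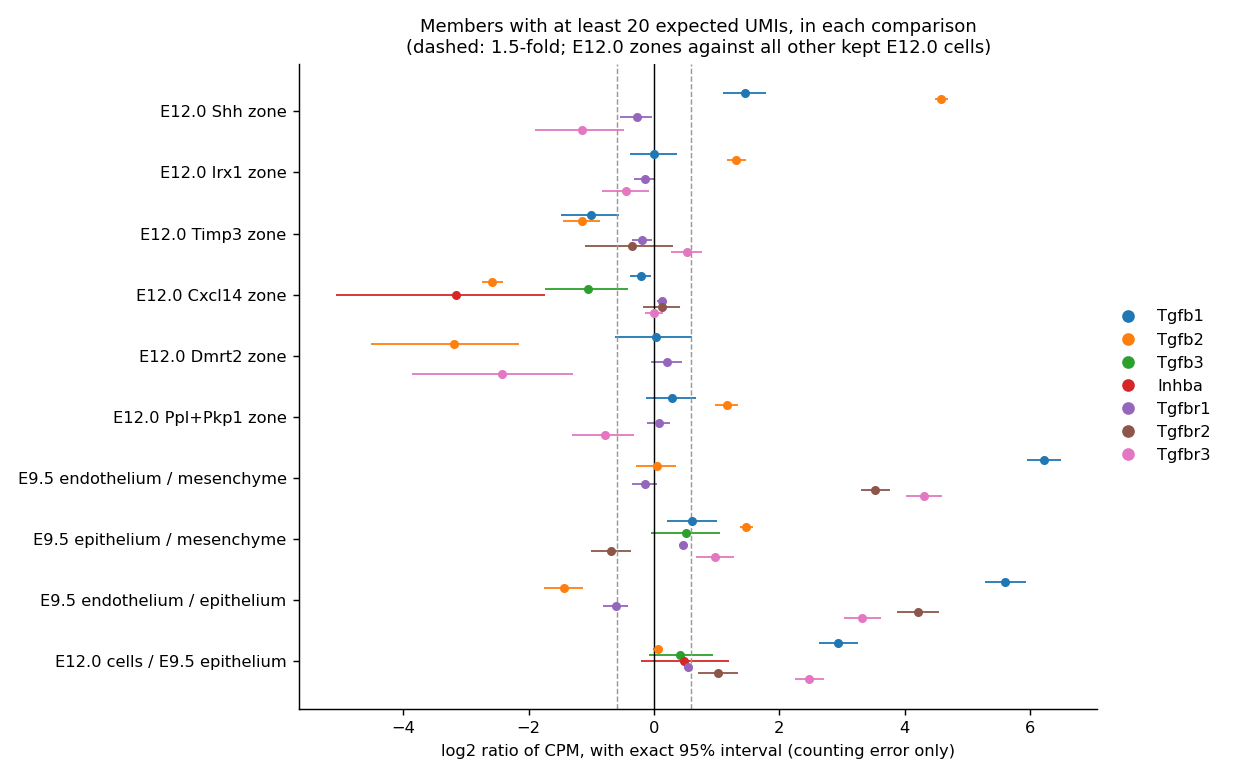
Log2 ratio of CPM for every member with at least 20 expected UMIs, in the 6 comparisons of an E12.0 zone with all other kept E12.0 cells, the 3 comparisons between E9.5 gates and the comparison between stages; bars are exact 95% intervals for counting error and dashed lines mark 1.5-fold. Tgfb2 lies at 4.59 in the Shh zone and -3.20 in the Dmrt2 zone, Tgfbr1 stays within the dashed lines in all 6 zones, and Tgfb1 lies at 6.22 between E9.5 endothelium and mesenchyme.

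Between stages, all kept E12.0 cells were set beside the E9.5 epithelium gate. Stage, library, sort, dissociation, gene list and mix of cells changed together in this comparison and cannot be told apart. The E9.5 gate included cells with Foxa2 or Pax1, genes of the pharyngeal endoderm and pouches, whereas the study set endodermal cells aside. No such gate was applied to the E12.0 cells. Tgfb1 was 17.2 CPM (16.3 to 18.2) at E12.0 and 2.24 CPM at E9.5, a ratio of 7.68 (6.21 to 9.61). Tgfbr3 was 23.3 CPM (22.2 to 24.4) against 4.17, a ratio of 5.58 (4.77 to 6.58), and Tgfbr2 was 5.20 CPM (4.70 to 5.73) against 2.56, a ratio of 2.03 (1.63 to 2.54). The part of free RNA in the low E9.5 levels of Tgfb1, Tgfbr2 and Tgfbr3 was not tested, nor was free RNA measured in the sorted E12.0 library. The E9.5 erythroid cells had 0 Tgfbr2 UMIs, with an exact bound of 3.85 CPM, which is above the 2.56 CPM of the E9.5 epithelium. Tgfb2 was 46.5 CPM (44.96 to 48.0) against 44.4, with an interval of the ratio from 0.990 to 1.11. Both levels average over unlike cells, such as the Shh zone at E12.0 (745 CPM). At E9.5, cells with Foxa2 had 98.7 CPM and cells with Vgll2 had 20.3. The near-equal Tgfb2 levels are thus no measure of change within a tissue. The ratio was 1.46 for Tgfbr1, 1.34 for Tgfb3 and 1.39 for Inhba. Thus 3 of 7 members were at least 1.5-fold higher at E12.0 and 0 lower, against 35.6% higher and 18.5% lower among all genes, whose median log2 ratio was 0.24.

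Joint detection of a ligand and the type II receptor gene in the same thinned cell was compared with the product of the shares of the 2 genes. Over all kept E9.5 cells, Tgfb1 and Tgfbr2 were found together 6.70 times as often as that product (4.72 to 9.23, in 37 cells). Within the endothelium gate, which held 32 of those cells, the ratio was 1.37 (0.948 to 1.90). In the E9.5 epithelium Tgfb2 and Tgfbr2 were found together in 10 cells, 2.24 times the product (1.07 to 4.11). At E12.0 the ratio was 0.941 for Tgfb1 with Tgfbr2 (12 cells), 0.634 for Tgfb2 with Tgfbr2 (11 cells) and 0.919 for Tgfbr1 with Tgfbr2 (59 cells), and each of these intervals included 1.

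The other genes of the pathway were described with a list of 39: receptors and co-receptors, SMAD proteins and their nuclear partners, proteins of latency and activation, antagonists, other ligands and genes that the pathway commonly induces. In the Shh zone 8 of the 21 counted were higher and 1 lower, against 4.81% and 7.81% of all genes. The largest ratios were those of Thbs1, whose product thrombospondin can activate latent TGF-beta, at 338 CPM against 33.5 (ratio 10.1, 9.19 to 11.04), and of Cdkn1a, a cell cycle inhibitor, at 371 CPM against 39.1 (ratio 9.49, 8.69 to 10.3). Acvr2a, an activin type II receptor gene, was the lower one, 1.80 times below the other cells. The median log2 ratio was 0.19, against -0.04 over all genes.

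In the Irx1 zone 5 of 26 were higher and 3 lower, against 3.26% and 8.05% of all genes. Fst, which encodes the activin antagonist follistatin, was 4.00 times higher (3.70 to 4.32) and Ltbp1, which encodes a latent TGF-beta binding protein, 2.06 times. Itgb6, an integrin subunit gene whose product helps activate latent TGF-beta, was 4.39 times lower and Dcn, which encodes the ligand-binding proteoglycan decorin, 2.18 times. Fst was used as a marker of the dental zone and is no independent result there. In the Timp3 zone 1 of 26 was higher, the matricellular gene Ccn1 at 2.05 times, and 3 were lower, with Cdkn1a and Dcn the lowest, at 2.61 and 2.15 times, against 0.964% higher and 3.63% lower among all genes. The median log2 ratio was -0.02 in the Irx1 zone and -0.11 in the Timp3 zone, against -0.02 and -0.000808 over all genes.

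In the Cxcl14 zone 4 of 32 were higher and 8 lower, against 4.86% and 7.81% of all genes. Dcn was 50.7 CPM against 13.5 (ratio 3.74, 3.41 to 4.11) and Tgfbi, which encodes a TGF-beta-induced matrix protein, 3.47 times higher, while Ccn2 and Fst were 7.20 and 3.79 times lower. In the Dmrt2 zone 3 of 21 were higher, led by Fst at 2.27 times and Ltbp1 at 1.97, and 4 lower, led by Bambi at 15.3 times (7.40 to 38.0, from 7 UMIs) and Dcn at 3.73 times. Bambi encodes a pseudoreceptor without a kinase domain, and of all genes 3.77% were higher and 5.54% lower there. In the Ppl+Pkp1 zone 5 of 25 were higher, led by Cdkn1a at 4.79 times and Itgb6 at 2.91, and 4 lower, led by Dcn and Ccn1 at 2.42 and 2.23 times, against 6.39% and 6.30% of all genes. The medians were -0.07, 0.05 and -0.000402 in these 3 zones, against -0.03, 0.02 and -0.04 over all genes.

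At E9.5, 9 of 22 pathway genes were higher in endothelium than in mesenchyme and 4 lower, against 15.8% and 14.6% of all genes. Eng, which encodes the endothelial co-receptor endoglin, was 120 CPM against 5.31 (ratio 22.5, 20.0 to 25.4), and Acvrl1, the gene of the endothelial type I receptor ALK1, was 36.7 CPM against 3.03 (ratio 12.1, 10.1 to 14.6). Gdf11, a ligand gene, and Acvr2b, a type II receptor gene, were 3.12 and 2.08 times lower. Between epithelium and mesenchyme 13 of 31 were higher, led by Dcn at 15.3 times (10.7 to 22.3) and Itgb8 at 11.4, and 4 lower, led by Tgfbi at 10.0 times and Eng at 7.97, against 25.4% and 10.2% of all genes. Between endothelium and epithelium 6 of 23 were higher, led by Eng at 180 times (122 to 275) and Acvrl1 at 67.6, and 9 lower, led by Itgb8 at 15.4 times (from 3 UMIs in endothelium) and Ltbp1 at 7.04, against 13.6% and 25.6% of all genes. The median log2 ratios of the list were 0.20, 0.43 and -0.42, against -0.07, 0.15 and -0.17 over all genes.

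Between stages 23 of 32 pathway genes were higher at E12.0 and 2 lower, against 35.6% and 18.5% of all genes, with a median log2 ratio of 1.88 against 0.24 over all genes. Fst was 60.4 CPM against 1.63 (ratio 37.1, 29.1 to 48.1) and Ltbp2 was 27.1 times higher, though from 2 UMIs at E9.5 (7.31 to 226). Ccn2 and Acvr2b were 3.35 and 2.06 times lower.

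**Figure D5:**
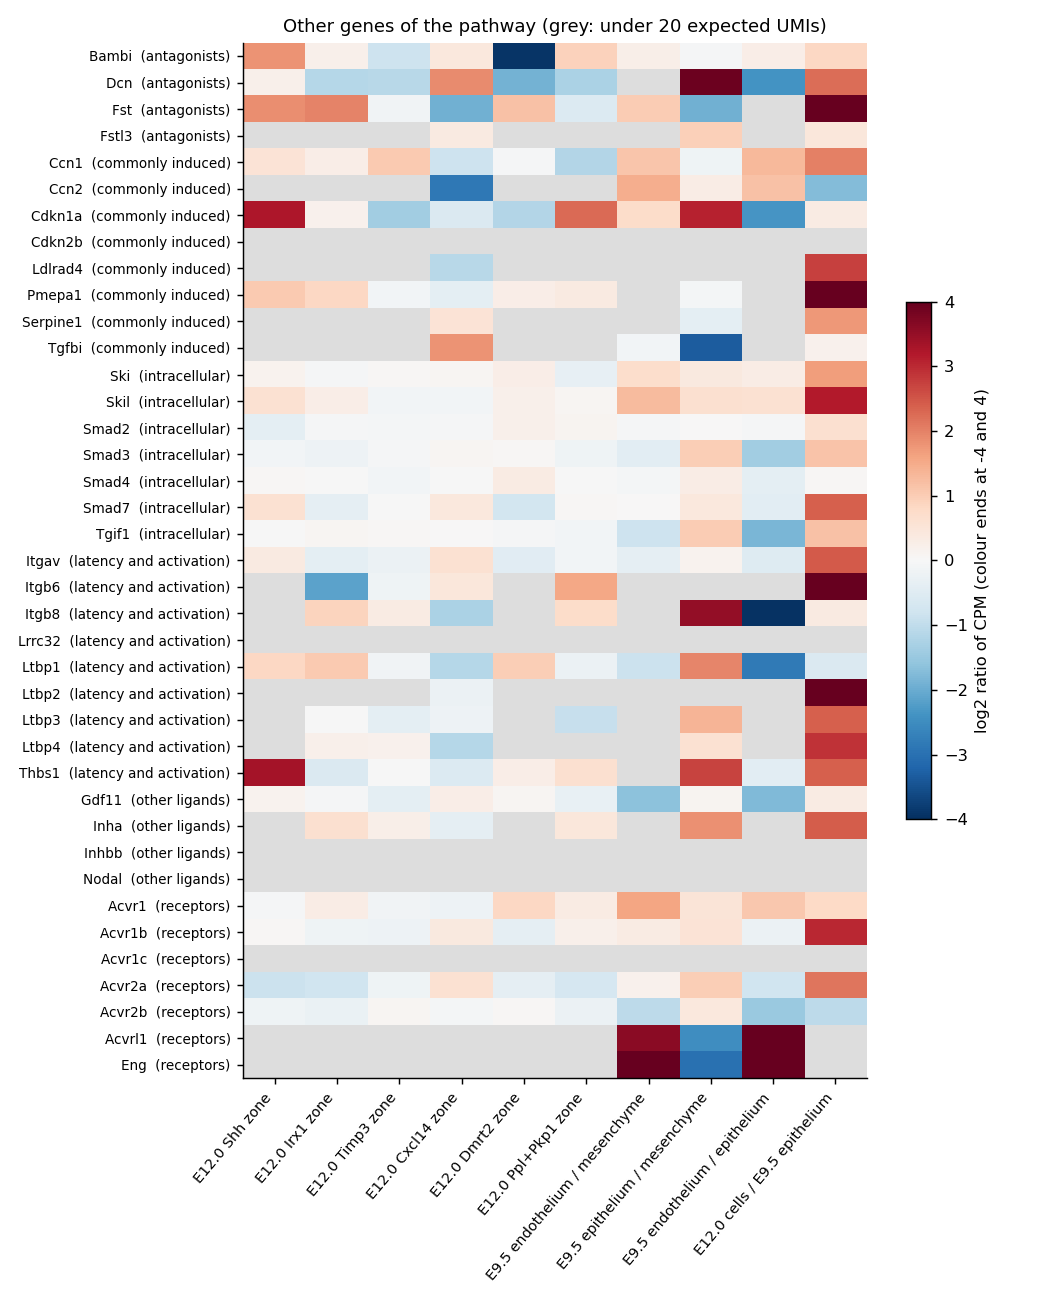
Log2 ratio of CPM for the 39 other genes of the pathway, in rows named with their role, in the same comparisons as columns; red is higher and blue lower in the first-named group, colours end at -4 and 4, and grey marks under 20 expected UMIs. Thbs1 and Cdkn1a are the reddest of the Shh zone (ratios 10.1 and 9.49), Eng and Acvrl1 are counted in the E9.5 gates alone, and most genes are red between stages.

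The genes whose levels were most like each member's over the 9 groups (6 zones and 3 gates) were found by Pearson's r of log2(CPM + 5) among 5259 genes, as a description, since all groups come from 2 libraries. For Tgfb2 they were Frem1 (r = 0.988), Hs3st3b1 (0.970) and Proser2 (0.956). For Tgfb1 they were Mef2a (0.965), Ppp1r15a (0.956) and Map7d1 (0.955). For Tgfbr1 they were Cpsf7 (0.985), Tead3 (0.983) and Sertad2 (0.983), and for Tgfbr3 Txnip (0.923), Npr3 (0.922) and Wasf2 (0.886). Tgfbr1 was 41.1 to 62.9 CPM in the E9.5 gates and 75.8 to 105 in the zones. Its r thus also follows the difference between the libraries. Tgfb1 and Tgfbr3 lay below the added 5 CPM in the E9.5 epithelium and mesenchyme, and Tgfbr3 also in the Dmrt2 zone. Tgfb3 and Inhba lay at about the added 5 CPM or below it in every group, and Tgfbr2 in all but the endothelium gate, so no likeness is read for these genes.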

How the data were processed

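Both libraries were made with 10x Genomics chemistry. The authors deposited UMI counts per gene and cell barcode, without normalization. The study's notes name Cell Ranger 2.0.0 with GRCm38, while the file headers name versions 3.1.0 and 6.1.2. Gene positions are from GENCODE on GRCm38. Both gene lists had to hold a gene for the comparison between stages.

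Cells with 200 to 5500 genes and at most 10% mitochondrial UMIs were kept. The upper gene limit removed 1129 of 14293 barcodes at E9.5. Doublets were called with Scrublet in scanpy 1.11.5 (661 cells at E12.0, 331 at E9.5) and kept except in an alternative. A cell with Ppl and Pkp1 UMIs entered that zone. Otherwise 2 Shh UMIs placed it in the Shh zone, and then 2 UMIs of exactly 1 of Irx1, Timp3, Cxcl14 and Dmrt2 in that gene's zone. E9.5 gates needed 3 UMIs of their genes, and erythroid cells had 20% globin UMIs.

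Sums per group and intervals were computed with scipy 1.17.1, numpy 2.4.6 and pandas 2.3.3 (Python 3.11.15), and matplotlib 3.10.9 drew the figures. Poisson, Clopper-Pearson and conditional intervals are exact, at 95%, and cover counting error only. Thinning used 4000 UMIs (seed 1) and left out 916 shallower cells at E12.0 and 1715 at E9.5. A group at 0 is described by 3 UMIs. The steps were tested on simulated data. Genes that defined a zone or gate were left out of the background percentages.

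The named pathway genes are the 2 with the largest ratio in each direction. The members, lists and comparisons were chosen with earlier results of these data known. Alternatives changed the gates, the filters, the weights, the depth, the fold and the UMI minimum. No sequence is shown.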

Additional observations from a re-analysis of the deposited data

How the results depend on the processing

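Over 723 values of a member in a comparison under an alternative, 629 stayed within the counting interval of the reported ratio, 92 left it, and 2 called values turned their direction: the log2 ratio of Tgfb1 between E9.5 epithelium and mesenchyme, 0.61, was -0.0470 with overlapping gates and -0.31 in thinned cells. Tgfb2 in the Shh zone kept its direction in all 11 alternatives, with log2 ratios from 3.65 (gate of 1 UMI) to 4.90. Tgfb1 between E9.5 endothelium and mesenchyme kept it in 9, with ratios from 36.6 to 82.1. Of member calls across zones, 13 became 8 with at most 5% mitochondrial UMIs, 8 in thinned cells and 4 with at least 100 expected UMIs. Between E9.5 gates 12 became 7 in thinned cells and 5 with 100 expected UMIs, and between stages 3 became 5 with at most 5% mitochondrial UMIs. Of pathway calls, 49 across zones became 28 with a fold of 2 and 28 with 100 expected UMIs, and 45 between E9.5 gates became 27 in thinned cells and 24 with 100 expected UMIs. A stricter fold, a higher UMI minimum or fewer UMIs can by construction leave fewer calls. Tgfb2 in the Ppl+Pkp1 zone no longer passed 1.5-fold with a gate of 3 UMIs (log2 ratio 0.42). The same held, in an alternative chosen after seeing the data, without cells holding a Shh UMI outside the Shh zone (0.12). There the reference kept the Shh zone, so that drop is in part built in. No paired analysis was possible because there is 1 library per stage. The depth limits Tgfb3 and Inhba, which among the zones could be counted in the Cxcl14 zone alone. It also limits Tgfbr2, which could be counted only there and in the Timp3 zone.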
